A study of Homo sapiens with 16 samples.

Results

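The genes examined were 10 genes of ER stress signalling and p53-linked cell death that have been tied to how cells respond to GSK-J4: ATF4, DDIT3, TRIB3, CHAC1, ATF3, XBP1, HSPA5, BBC3, PMAIP1 and MDM2. They were taken by name, with no threshold on a measured value. All 10 were found among the 20163 protein-coding genes of the annotation. Their chromatin was read in 16 CUT&Tag libraries of BE2C cells, a human neuroblastoma line with amplified MYCN. In CUT&Tag an antibody against a histone mark brings a transposase to it, which adds sequencing adapters to nearby DNA. Libraries were made for trimethylation of histone H3 at lysine 27 (H3K27me3) and for monomethylation at lysine 4 (H3K4me1), in 8 groups of 2 libraries. For each mark, the siRNA experiment held cells transfected for 72 h with siKDM6B33, which targets the demethylase KDM6B, and cells transfected with the control siRNA siCtrl. The compound experiment held cells treated for 72 h with GSK-J4 at 2.5 µM, which inhibits KDM6 demethylases, and cells with DMSO at 0.1% as the solvent. All groups were the same cell line, and 1 siRNA against KDM6B was used in these libraries. The study names its replicates biological, and the comparisons measure the spread between these libraries only. Region lists hold no RNA values, so they do not check how far KDM6B was depleted.

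When unfolded proteins build up in the endoplasmic reticulum (ER), 3 sensors start the unfolded protein response. The sensor PERK phosphorylates eIF2α, which lowers general translation and favours that of ATF4, the transcription factor of the integrated stress response. ATF4 and its partners switch on DDIT3 (CHOP), ATF3, TRIB3 and CHAC1. The sensor IRE1 splices the mRNA of XBP1, and the sensor ATF6 drives HSPA5, the main ER chaperone (BiP). Both stress factors and p53 can induce the death proteins BBC3 (PUMA) and PMAIP1 (NOXA), and p53 also induces MDM2, the ligase that degrades it. H3K27me3 is the repressive mark that KDM6B removes. H3K4me1 marks enhancers and the flanks of promoters.

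Coverage is the percentage of a window that lay in the broad regions (islands) called for a library. The gene window was the gene with 5 kb on each side, and the start window was 1 kb on each side of every annotated start, merged. A gene was counted as higher or lower in a comparison when both treated libraries lay above, or below, both controls. The share of all protein-coding genes with the same pattern is given beside each first count as its background. With 2 libraries against 2 the exact two-sided permutation test cannot give a p under 0.333, which is the p of every member counted as higher or lower, so no difference below could pass that test, and no other was run. A wider island may mean that more cells carried the mark or that each carried more, which bulk libraries cannot tell apart.

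Depth differed between groups. The background of the narrow peak calls, in tags per base, was 0.0849 to 0.0902 in the siCtrl and 0.105 to 0.107 in the siKDM6B33 libraries of H3K4me1, and islands covered 98.6 to 103 Mb and 114 to 115 Mb. In the compound experiment it was 0.0483 to 0.0569 under DMSO and 0.0547 to 0.0559 under GSK-J4. For H3K27me3 it was 0.0395 to 0.0401 with siCtrl, 0.0529 to 0.0539 with siKDM6B33, 0.0298 to 0.0338 with DMSO and 0.0371 to 0.0507 with GSK-J4. GSK-J4 replicate 1 of H3K27me3 stood apart, with 16676 islands against 8006 in replicate 2. The adrenergic neuroblastoma markers HAND2, GATA3 and TH each had an H3K4me1 island in the gene window of all 8 H3K4me1 libraries. Among fibroblast and leukocyte markers, COL1A1 had one in 8 libraries, SPI1 in 6, DCN in 3 and LUM in 1, and COL1A2, PTPRC and CD3E in 0.

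The sequences before the starts of the ER chaperone gene and of the factor that IRE1 activates share a stress element, so they are shown first. These starts also had the largest H3K4me1 differences among the members after the knockdown, in island coverage of the start window. The order depended on the measure. With islands of at least 2 kb, the difference was larger at MDM2 (76.4 percentage points) than at HSPA5 (50). In summit height over background, the differences at DDIT3, CHAC1 and ATF4 were larger. A link between the element and H3K4me1 was not tested. The ER stress response element (ERSE) was searched as CCAAT, 9 bases of any kind and CCACG, on both strands of the 250 bases before the canonical start. It was found in 0.101% of 19789 promoters, 20 in all, and HSPA5 and XBP1 were among them. In XBP1 it lay at −52 to −34 from the start, and in HSPA5 at −66 to −48, on the gene's strand in both. The lines give the upstream stretches 5′ to 3′ on the gene's strand, from hg19 chr22:29196586-29196807 (minus strand) and chr9:128003662-128003872 (minus strand), with the element in capitals.
XBP1: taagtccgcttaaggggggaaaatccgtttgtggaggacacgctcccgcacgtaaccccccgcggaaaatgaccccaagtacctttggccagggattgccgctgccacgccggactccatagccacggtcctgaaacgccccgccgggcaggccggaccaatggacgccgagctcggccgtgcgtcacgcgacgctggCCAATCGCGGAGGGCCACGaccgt
HSPA5: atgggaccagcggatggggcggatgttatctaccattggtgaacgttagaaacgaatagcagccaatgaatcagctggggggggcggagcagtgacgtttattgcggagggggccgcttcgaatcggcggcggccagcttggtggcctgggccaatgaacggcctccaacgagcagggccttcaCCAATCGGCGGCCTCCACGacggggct

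The CARE (TGATGNAAN), to which ATF4 and its CCAAT/enhancer binding partners bind, was found in 2.17% of the promoters, and ATF3 had 2 matches and CHAC1 had 1. DDIT3 and TRIB3, also named above as ATF4 targets, had no match in the 250 bases. The matches of ATF3 and CHAC1 are shown because both genes are ATF4 targets. The stretches lie at hg19 chr1:212781894-212781912, chr1:212782077-212782095 and chr15:41245454-41245472, are written on the gene's strand, which is the plus strand, and have the match in capitals. The first ATF3 match and the CHAC1 match read on the opposite strand.
ATF3, −209 to −191: ccgaaCTTGCATCAccagt
ATF3, −26 to −8: aggggTGATGCAACgctct
CHAC1, −215 to −197: ctgccGTTGCATCActcct

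No member held the cyclic AMP response element (TGACGTCA, in 2.43% of promoters), the unfolded protein response element (TGACGTGG, in 0.687%, which shares its first 6 letters with the former) or a strict pair of p53 decamers, which 1 promoter of all held (0.00505%). These are letter matches within 250 bases and say nothing of binding. All 10 promoters were rich in CpG, with an observed over expected ratio of 0.726 to 1.09 and a median of 0.916, against a median of 0.749 over all promoters.

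Some members carried H3K4me1 islands in every library and others in none of the controls. Over the 8 H3K4me1 libraries, treated and control together, median gene window coverage was 69.2% at ATF4, 58.9% at DDIT3, 57.6% at CHAC1, 30.1% at BBC3, 13.0% at ATF3 and 6.04% at TRIB3. These 6 genes had an H3K4me1 island in every library. All 10 members had one in at least 1 library of the siRNA experiment and 6 in the compound experiment, beside 69.6% and 45% of all genes. XBP1, HSPA5, PMAIP1 and MDM2 had a median of 0 and no island in any library outside the siKDM6B33 group. The range of each gene over the libraries overlapped that of the next in this order, and the order depended on the group. In the means, CHAC1 (66.8%) lay above DDIT3 (62.8%) with siCtrl, and CHAC1 (57.6%) and DDIT3 (48.3%) lay above ATF4 (31.5%) with GSK-J4. Lower down, TRIB3 (22.4%) lay above BBC3 (21.0%) with GSK-J4, and HSPA5 (44.2%) and XBP1 (41.8%) lay above BBC3 (33.3%) with siKDM6B33. H3K27me3 was rarer. ATF3 alone had an H3K27me3 island in all 8 libraries, DDIT3, BBC3 and ATF4 had one in the 4 libraries of the compound experiment only, CHAC1 and TRIB3 had islands in 1 library, and XBP1, HSPA5, PMAIP1 and MDM2 in none. An H3K27me3 island in at least 1 library was thus found at 1 member in the siRNA and 6 in the compound experiment, beside 28.2% and 38.5% of all genes.

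**Figure D1:**
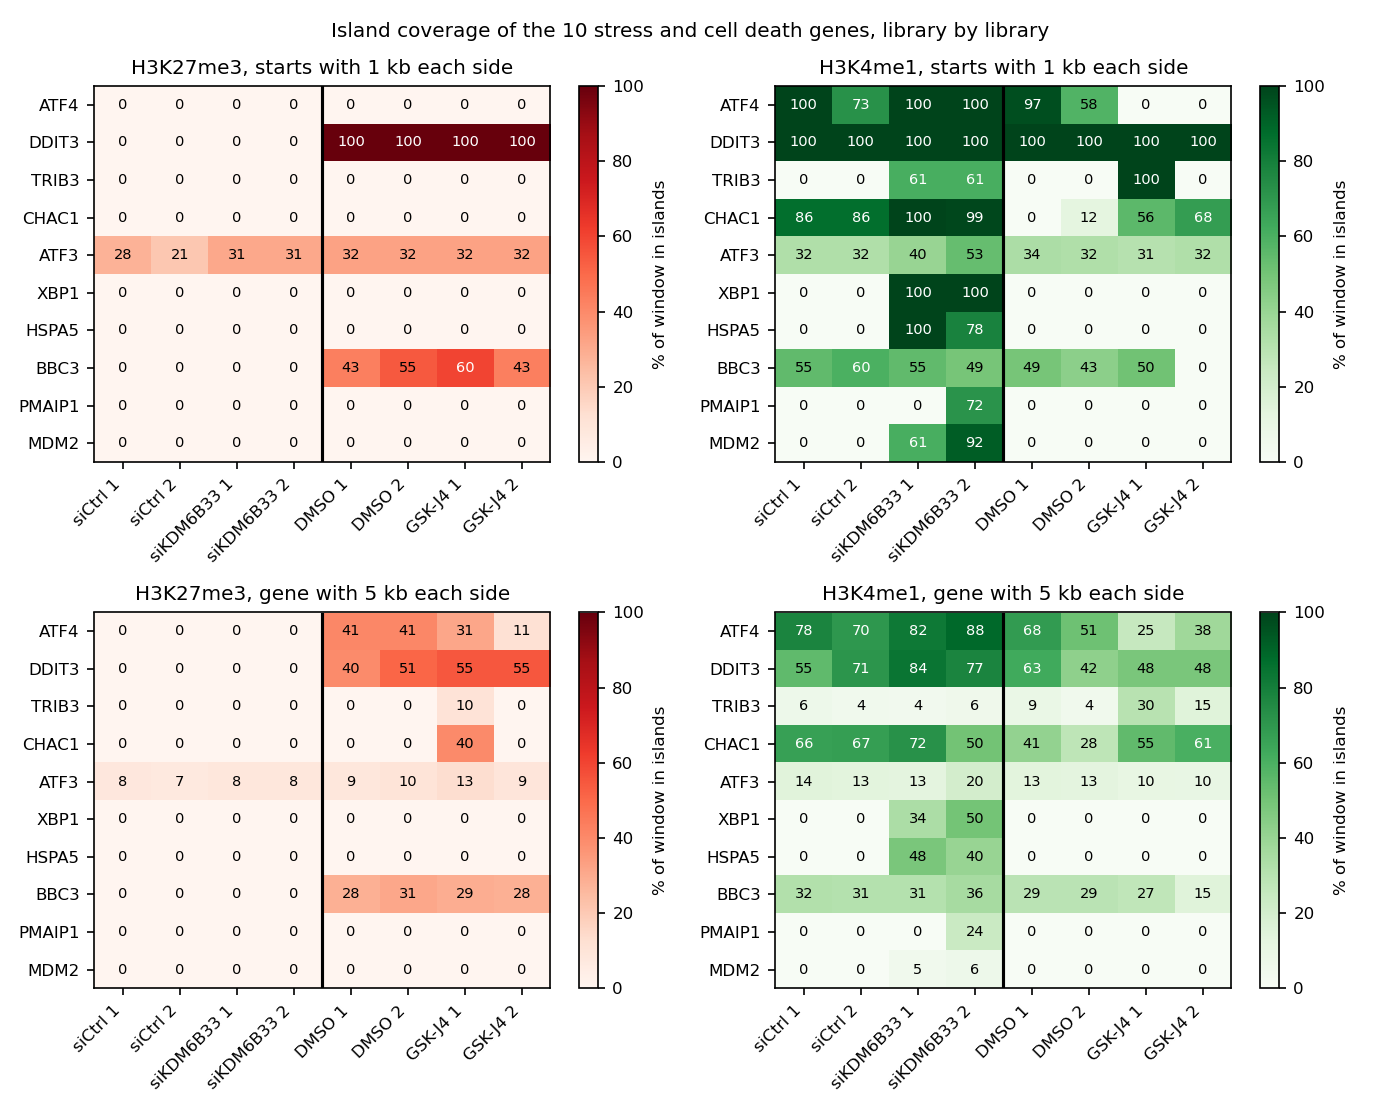
Percentage of the start window (top) and gene window (bottom) in islands, for H3K27me3 (left) and H3K4me1 (right), with a row for each gene and a column for each library, and a line between the knockdown and the compound experiment. XBP1, HSPA5 and MDM2 have H3K4me1 cells above 0 in both siKDM6B33 columns only, and DDIT3 and BBC3 have H3K27me3 cells above 0 right of the line only.

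After the knockdown of KDM6B, H3K4me1 islands appeared at starts of both ER protein folding genes, XBP1 and HSPA5, and of MDM2 and TRIB3, 4 of the 10 members, and at 0 was an island lost. Over all genes with a start the shares were 30.1% gained and 0.742% lost, so a gain at 4 of 10 was near the share of all genes. XBP1 (chromosome 22, 29190543 to 29196585, minus strand) encodes the transcription factor that raises the folding and export capacity of the ER. Its start window was covered 0 and 0% in the siCtrl and 100 and 100% in the siKDM6B33 libraries. The islands were 5400 and 8000 bp wide, and ran from −2043 to 3356 bp around the canonical start in replicate 1 and from −2443 to 5556 bp in replicate 2. In the siCtrl libraries the nearest H3K4me1 island was 103444 and 105444 bp away. Narrow peaks at the start were there in all 4 libraries, with a highest summit of 3 and 3 tags in the controls and 9 and 11 tags after the knockdown. So the controls held faint peaks below what the island caller accepted. The gene window was covered 0 and 0% against 33.7 and 49.9%, a mean of 41.8% ± 11.5 (SD, n = 2) after the knockdown, and the difference was 74.2 percentage points over the gene body without its flanks.

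HSPA5 (chromosome 9, 127997132 to 128003661, minus strand), the BiP chaperone that holds the stress sensors inactive, had the same pattern. Its start window was covered 0 and 0% with siCtrl and 100 and 78.4% with siKDM6B33, so the groups did not overlap. In replicate 1 a single island of 8000 bp ran from −1578 to 6421 bp around the start. In replicate 2 a 1600-bp island sat over the start and a second of 5000 bp began 1422 bp after it. The nearest island of the controls lay 40622 and 40422 bp away. The highest start summit was 5 tags and no peak with siCtrl, and 17 and 12 tags with siKDM6B33, placed 148 bp after the canonical start in a UTR exon and at −17 bp. With islands of at least 2 kb only, the difference of the start window was 50 percentage points in place of 89.2, since the start island of replicate 2 was left out.

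The starts of XBP1 and HSPA5 each faced a noncoding RNA gene on the other strand. The start of the lncRNA ENSG00000226471 lay at −114 bp from that of XBP1, and the start of HSPA5-DT lay at −320 bp from that of HSPA5. An island over either start lies over both genes of the pair and cannot be assigned to 1 of them.

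**Figure D2:**
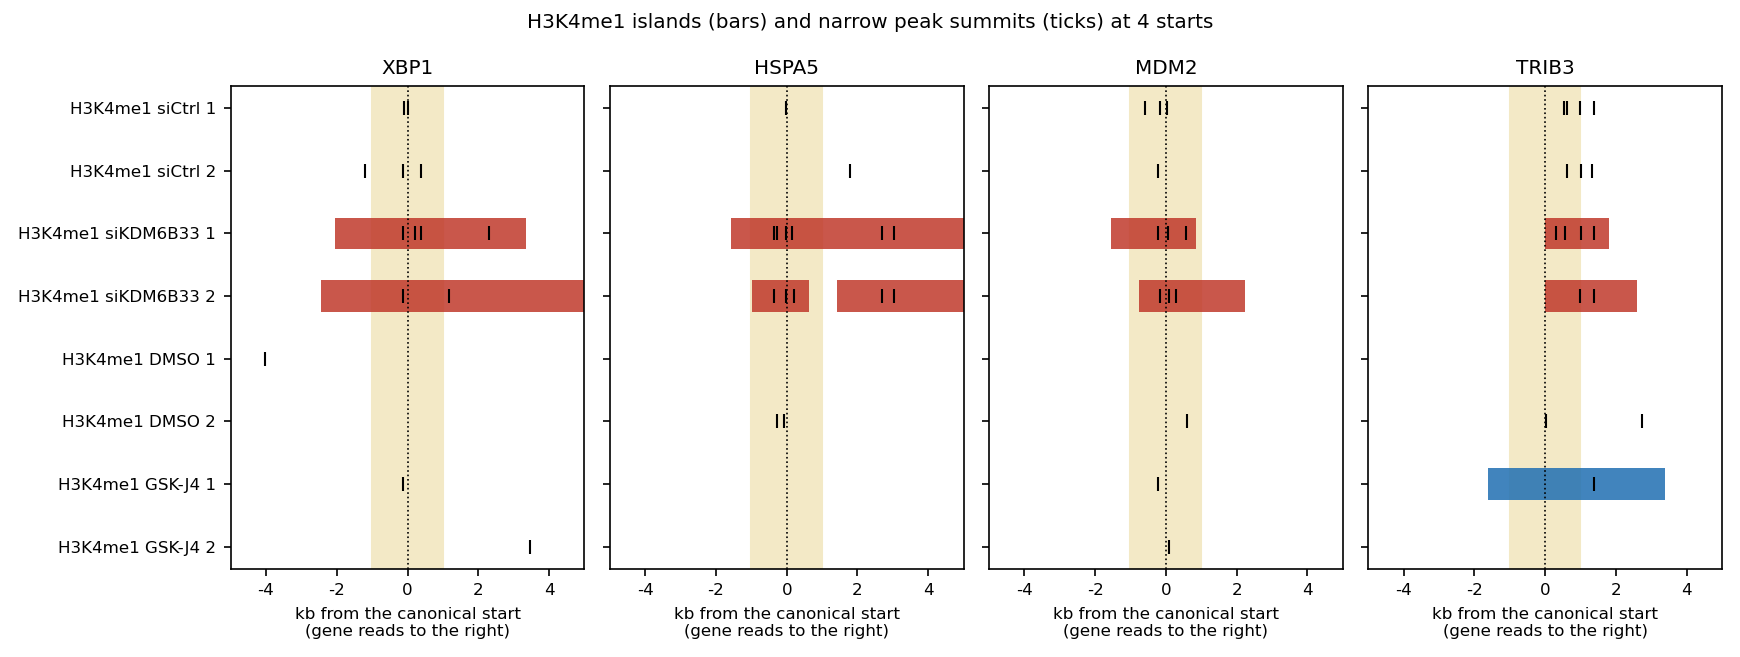
H3K4me1 islands (bars) and narrow peak summits (ticks) within 5 kb of the canonical start, marked by the dotted line, at XBP1, HSPA5, MDM2 and TRIB3, with 1 row for each library and the 1 kb on each side shaded. Bars cross the start in both siKDM6B33 rows of each gene and in no siCtrl or DMSO row, while ticks near the start are also seen in siCtrl rows.

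MDM2 (chromosome 12, 69201957 to 69239324, plus strand) was, of the 3 p53 targets among the members, the 1 whose start coverage did not overlap between the groups. Its start window was covered 0 and 0% in the siCtrl and 60.7 and 92.0% in the siKDM6B33 libraries. The islands were 2400 and 3000 bp wide and lay over the first start, while the nearest island of the siCtrl libraries was 597957 and 598157 bp away. Its highest start summit was 4 and 3 tags with siCtrl and 14 and 9 tags with siKDM6B33, and the treated summits lay in a UTR exon 68 and 75 bp after the canonical start. PMAIP1 (chromosome 18, 57567228 to 57571537, plus strand), a BH3-only protein that frees BAX and BAK, had an island in siKDM6B33 replicate 2 alone, which covered 71.6% of its start window. Its groups therefore overlapped in coverage, with 0% in the other 3 libraries. Its narrow peaks did not overlap, with no peak and 2 tags in the controls and 7 and 8 tags after the knockdown. BBC3 (chromosome 19, 47724079 to 47736023, minus strand), the BH3-only protein PUMA, was covered already in the controls, with start window values of 54.5 and 60.1% with siCtrl and 54.5 and 48.9% with siKDM6B33. These overlapped, as did its highest summits of 16 and 11 tags against 15 and 14 tags.

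The genes of the PERK arm carried H3K4me1 islands in their gene windows before the knockdown. Except at TRIB3, whose starts had no island with siCtrl, what differed was mostly the extent of the mark or the calling and height of its narrow peaks. ATF4 (chromosome 22, 39915700 to 39918688, plus strand) had a gene window coverage of 77.7 and 70.0% with siCtrl and 82.3 and 88.4% with siKDM6B33, a difference of 11.5 percentage points. Its highest start summit was 9 and 10 tags in the controls and 31 and 28 tags after the knockdown, and the treated summits, at −868 and −818 bp, lay near an upstream alternative start at −867 bp. DDIT3 (chromosome 12, 57910371 to 57915520, minus strand), the CHOP factor that promotes death under lasting stress, had its start window covered in full in all 4 libraries. Its gene window was covered 54.9 and 70.8% with siCtrl and 84.0 and 77.4% with siKDM6B33, which is 17.8 points higher in the means and 9.90 points higher without siCtrl replicate 1. Its highest summit was the tallest of the members, at 34 and 42 tags with siCtrl and 89 and 88 tags with siKDM6B33.

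The tallest DDIT3 summits of the siKDM6B33 libraries lay at −1368 and −1378 bp from the canonical start, just upstream of a second DDIT3 start at −1223 bp. MBD6, a gene on the other strand, is annotated from 57914493 to 57923931 and so overlaps this stretch, and the nearest of its protein-coding starts used here lay at −2310 bp. Another protein-coding gene on the strand of DDIT3, ENSG00000285133, runs from 57911495 to 57914263 and starts 34 bp after the canonical DDIT3 start. The summits, and the islands over the DDIT3 start, cannot be assigned to 1 of these genes.

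CHAC1 (chromosome 15, 41245160 to 41248710, plus strand), an enzyme that breaks down glutathione, showed peaks that were new to the narrow peak lists. Its start window held 0 and 0 narrow peaks with siCtrl, and 8 and 7 with siKDM6B33, the tallest of 28 and 25 tags. Islands covered 86.4 and 86.4% of the start window in the controls and 100 and 98.7% after the knockdown, while over the canonical start alone the difference was 0 points. Gene window coverage overlapped, at 66.4 and 67.2% against 72.3 and 50.2%.

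TRIB3 (chromosome 20, 343479 to 378203, plus strand), a pseudokinase that restrains ATF4 and DDIT3, had no island at its starts with siCtrl and 60.7% coverage in both siKDM6B33 libraries. The new islands were 1800 and 2600 bp wide and began at the canonical start. They were also weak. When islands under 2 kb were dropped the difference was 30.4 points, and with each list cut to the covered length of the shortest it was 0. The controls instead had an island 17004 and 17604 bp upstream, at the 5′ end of the annotated gene, that was not called after the knockdown, so gene window coverage overlapped, at 6.26 and 4.47% against 4.02 and 5.81%. ATF3 (chromosome 1, 212738676 to 212794119, plus strand), an early stress factor and repressor, had a start window coverage of 32.5 and 32.5% with siCtrl and 40.2 and 53.2% with siKDM6B33. The difference was 14.2 points, and 7.73 without siKDM6B33 replicate 2. Over the canonical start alone it was 0, since the added islands lay at the start of the longest transcript, about 43 kb upstream. Its highest summits were 21 and 34 tags with siCtrl and 53 and 38 tags with siKDM6B33, which did not overlap. Over the library background they did, at 233 and 401 times against 496 and 362 times.

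Counted together, 6 of the 10 members had a higher H3K4me1 coverage of the start window after the knockdown, namely XBP1, HSPA5, MDM2, TRIB3, CHAC1 and ATF3, and 0 a lower one. Over all 19812 genes with a start the shares were 40.9% higher and 1.92% lower. The median difference was 25.0 percentage points over the members and 2.38 over all genes, while the means were closer, at 39.7 and 27.9. All 10 members had a start island in some library of the comparison, against 62.0% of all genes, and genes without one enter the median as 0. In the gene window 5 members were higher, XBP1, HSPA5, MDM2, ATF4 and DDIT3, and 0 lower, with 46.2% and 9.63% of all genes. Without siKDM6B33 replicate 1 the gene window count was 8 higher. The members' shares thus lay near or somewhat above those of all genes, and higher H3K4me1 coverage was frequent over all genes. The siKDM6B33 libraries of H3K4me1 were deeper, as given above, and the part of depth was not tested beyond the following. With all lists of the comparison cut to the same covered length, 5 of 10 members were still higher at the start, TRIB3 being the one that was not, against 34.0% of all genes.

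The height of narrow peaks takes the depth of a library into account when it is divided by the library's background. On that scale the highest H3K4me1 summit of the start window was higher in both siKDM6B33 libraries at 8 members, all but ATF3 and BBC3, and lower at 0, against 56.1% and 3.11% of all genes. DDIT3 was at 377 and 495 times the background with siCtrl and at 832 and 837 times with siKDM6B33. ATF4 was at 99.8 and 118 times with siCtrl and 290 and 266 times with siKDM6B33. At CHAC1 the values were 0 and 0 against 262 and 238, where 0 means that no peak was called.

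**Figure D3:**
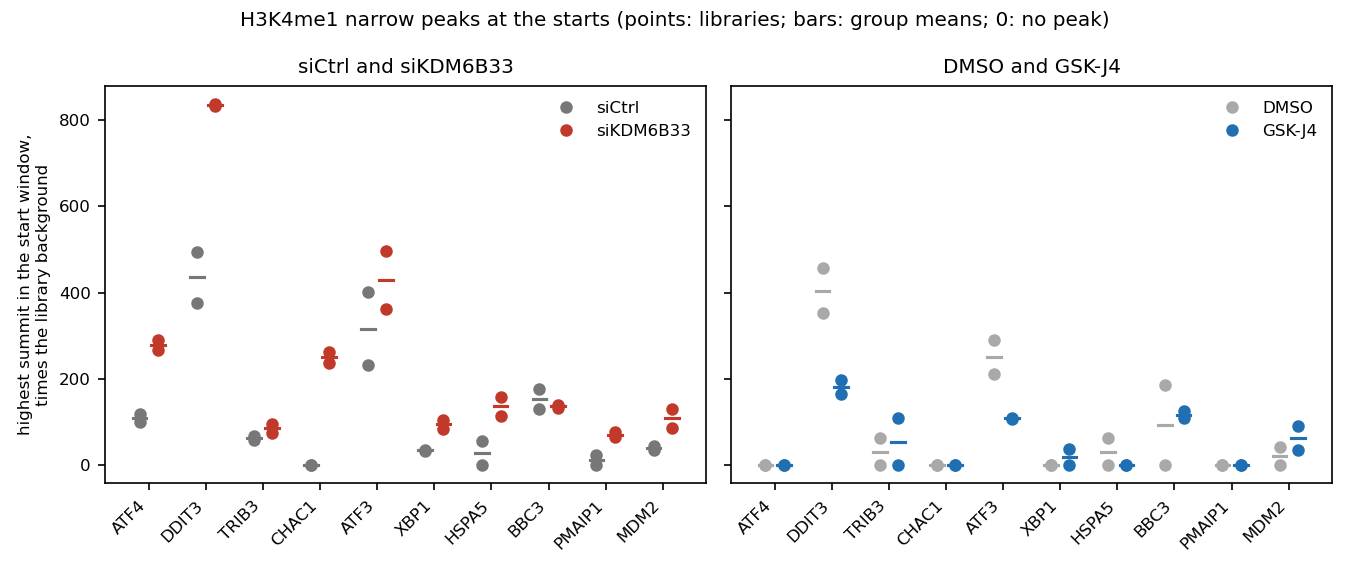
Height of the highest H3K4me1 narrow peak summit in the start window, as a multiple of the library background on a linear axis, for each gene in the knockdown experiment (left) and the compound experiment (right). Points are libraries, short bars are means of 2, and 0 means no peak. DDIT3 is at 832 and 837 in the siKDM6B33 libraries and at 164 and 197 in the GSK-J4 libraries.

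In the siRNA experiment ATF3 was the 1 member with an H3K27me3 island in any of the 4 libraries, beside 28.2% of all genes in the gene window and 21.0% in the start window. It covered 27.6 and 21.1% of the start window with siCtrl and 30.8 and 30.8% with siKDM6B33, so ATF3 was higher by 6.49 points, and by 3.25 without siCtrl replicate 2. Over the canonical start alone the difference was 20.0 points. Its gene window was covered 7.95 and 7.33% against 8.25 and 8.25%. The island began at −4502 bp from the canonical start in all 4 libraries and ended 697 and 297 bp after it with siCtrl and 897 and 897 bp after it with siKDM6B33, so it was its downstream edge that differed. Its score was not higher, at 1472 and 1530 with siCtrl and 1438 and 1411 with siKDM6B33, although those libraries were deeper. The highest start summits overlapped, at 506 and 524 times the background against 520 and 435 times. The 1 member higher and 0 lower stood against 9.96% and 3.25% of all genes in the gene window and 3.20% and 1.25% in the start window. H3K27me3 islands covered 53.7 and 54.2 Mb with siCtrl and 89.8 and 87.3 Mb with siKDM6B33. With lists cut to equal covered length the shares of all genes turned round, to 4.09% higher and 8.69% lower in the gene window and 1.11% higher and 4.36% lower in the start window, while the counts of members were still 1 and 0. The other 9 members had no H3K27me3 island within 5 kb in either group.

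With GSK-J4, the H3K4me1 island at the start of ATF4 was not called. Its start window was covered 96.5 and 58.5% under DMSO and 0 and 0% under GSK-J4, and its gene window 68.4 and 51.5% against 25.3 and 37.6%, a difference of −28.5 points. The DMSO islands began at −1766 and −1966 bp from the start. In replicate 1 the island ran on without a break, while in replicate 2 the upstream island was 1800 bp wide and another followed 2234 bp after the start. With GSK-J4 only the downstream stretch was called, and it began 3834 and 2234 bp after the start, past the end of the gene. Counting only islands of at least 2 kb, the start window difference was −48.3 points in place of −77.5, and over the gene body without its flanks the difference was −61.7 points. No narrow peak was called in the ATF4 start window in any of these 4 libraries.

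CHAC1 went the other way. Its start window was covered 0.123 and 12.4% under DMSO and 55.6 and 67.9% under GSK-J4, and its gene window 41.3 and 28.0% against 54.6 and 60.5%. The islands over the canonical start with GSK-J4 were 1200 and 1600 bp wide. Without islands under 2 kb the start window difference was 12.3 points in place of 55.5. No narrow peak was called at its start in these 4 libraries either, so the difference is one of broad, low signal.

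TRIB3 also had more H3K4me1 with GSK-J4, with 8.94 and 4.47% of the gene window covered under DMSO and 30.0 and 14.8% under GSK-J4. The difference was 15.7 points and 8.05 points without GSK-J4 replicate 1, which alone had islands over the start and past the 3′ end. In all 4 libraries an island lay about 7 to 10 kb before the canonical start, inside the annotated gene, and it was 2600 and 2000 bp wide with DMSO and 3200 and 3000 bp with GSK-J4. Its score, a sum over windows by the caller that grows with depth, was 117 and 116 in the DMSO and 436 and 412 in the GSK-J4 libraries, in libraries of similar depth. No such island was called in the 4 H3K4me1 libraries of the siRNA experiment.

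**Figure D4:**
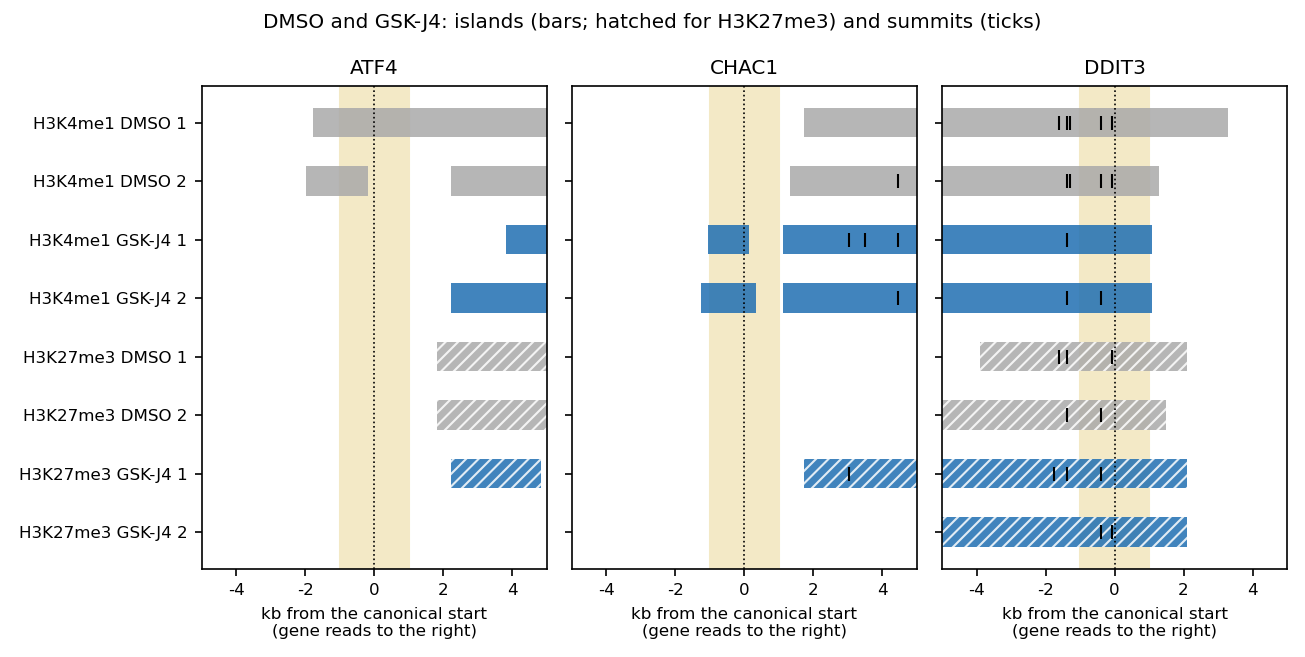
Islands (bars, hatched for H3K27me3) and narrow peak summits (ticks) of the DMSO and GSK-J4 libraries within 5 kb of the canonical start, marked by the dotted line, at ATF4, CHAC1 and DDIT3, with the 1 kb on each side shaded. At ATF4 the H3K4me1 bars before the start are seen in both DMSO rows and in no GSK-J4 row, at CHAC1 bars over the start are seen in both H3K4me1 GSK-J4 rows only, and at DDIT3 bars of both marks cross the start in all rows.

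At DDIT3 the H3K4me1 island stayed over the start, which was covered in full in all 4 libraries, while its peaks were lower. The highest summit was 26 and 17 tags with DMSO and 9 and 11 tags with GSK-J4, or 457 and 352 against 164 and 197 times the background. ATF3 was alike, at 211 and 290 times with DMSO and 110 and 107 times with GSK-J4. Its gene window coverage was 13.4 and 12.5% against 10.4 and 9.78%, a difference of −2.90 points that was −1.83 points with lists of the same covered length. BBC3 had 29.2 and 29.2% of its gene window covered with DMSO and 27.3 and 14.6% with GSK-J4, a difference of −8.20 points, or −1.82 without the second GSK-J4 library and −14.6 without the first. In the second library the island over the BBC3 start was not called. XBP1, HSPA5, MDM2 and PMAIP1 had no H3K4me1 island in these 4 libraries, and their highest summits were at most 5 tags.

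Over the members, H3K4me1 coverage of the gene window was higher with GSK-J4 at 2 (TRIB3 and CHAC1) and lower at 3 (ATF4, ATF3 and BBC3), against 10.3% and 7.96% of all genes. In the start window CHAC1 was the 1 higher and ATF4 the 1 lower, against 2.03% and 5.02%. Without GSK-J4 replicate 2 the start counts were 3 higher and 2 lower. A start island was gained at 0 members, against 0.596% of all genes, and lost at 1, against 2.26%. The summit over background was higher at 0 and lower at 2, against 4.75% and 11.0%, and without DMSO replicate 1 it was lower at 4. With counts of 1 to 3 genes these shares cannot be set apart from the background.

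H3K27me3 islands lay at 4 of the 10 members in both DMSO libraries and in both GSK-J4 libraries, beside 4562 and 5079 of all 20163 genes. At DDIT3 it covered the whole start window in all 4, and the gene window by 39.6 and 51.0% under DMSO and 54.9 and 54.9% under GSK-J4. The difference was 9.64 points, and 3.96 without DMSO replicate 1 or 15.3 without DMSO replicate 2. At ATF4 the island lay past the 3′ end of the gene or at its last bases, from 1834 bp after the start with DMSO and from 2234 and 5634 bp after it with GSK-J4, and covered 40.7 and 40.7% of the gene window in the DMSO and 31.5 and 11.5% in the GSK-J4 libraries. The difference was −19.2 points, or −29.3 without the first GSK-J4 library and −9.24 without the second. BBC3 overlapped between the groups, with 43.3 and 54.5% of its start window covered against 60.1 and 43.3%, and so did ATF3, with 32.5% in all 4. CHAC1 and TRIB3 had H3K27me3 islands in GSK-J4 replicate 1 alone, the library with the most islands, over 39.8 and 10.3% of their gene windows.

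The members higher and lower in H3K27me3 with GSK-J4 were 1 and 1 of 10 in the gene window, against 5.52% and 4.03% of all genes, and 0 and 0 in the start window, against 1.32% and 1.34%. Islands covered 58.3 and 64.6 Mb under DMSO and 66.9 and 72.6 Mb under GSK-J4. With equal covered length the shares of all genes were 2.84% higher and 4.97% lower in the gene window and 0.586% higher and 1.67% lower in the start window, and the counts of members were the same. Without GSK-J4 replicate 2 the count of higher members was 4 in the gene window and 2 in the start window.

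At DDIT3, BBC3 and ATF4 no H3K27me3 island was called with siCtrl or siKDM6B33, where the nearest one lay 33834 to 77945 bp from the start. The libraries with and without the island came from separate experiments, one with siRNA and the other with compound and solvent, so treatment and experiment cannot be told apart and within each experiment the treated and control libraries were alike in whether these genes had an island. Narrow peaks drew a less even picture. At the DDIT3 start a narrow H3K27me3 peak was called in siCtrl replicate 1, with a summit of 6 tags, and in siKDM6B33 replicate 2, with a highest summit of 5 tags, and none in the other library of each group. The DMSO and GSK-J4 libraries had DDIT3 summits of 9 and 6 tags and 12 and 6 tags. So narrow H3K27me3 peaks were called at the DDIT3 start in both experiments, but in the siRNA experiment without an island and in 1 library of each group. The peak of siCtrl replicate 1 spanned the same bases as an H3K4me1 peak of siCtrl replicate 1. Whether these low peaks reflect H3K27me3 itself was not tested. The BBC3 start had a narrow peak, of 8 tags, in GSK-J4 replicate 1 alone. The ATF4 start had one of 2 tags in siCtrl replicate 2 and in siKDM6B33 replicate 1, and none in the 4 compound libraries. In the compound experiment the H3K27me3 of these genes lay mostly within H3K4me1 islands of the library with the same treatment and number. The share of its length that did so was 82.9 to 100% at DDIT3, 51.6 to 100% at BBC3 and 60.9 to 100% at ATF4. At ATF3, where each mark had islands in all of its 8 libraries, it was 74.1 to 100%. The marks were read in different libraries, so shared bases do not show both marks on 1 nucleosome.

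Wider lists of the same pathways were followed in the same way for H3K4me1 start coverage, for which 40.9% of all genes were higher and 1.92% lower after the knockdown. Of 18 other ATF4 targets 7 (38.9%) were higher and 0 lower, with VLDLR at 0 and 0% against 100 and 100% and CTH, an enzyme of cysteine synthesis, at 0 and 0% against 100 and 97.0%. Of 19 genes of the unfolded protein response 10 (52.6%) were higher and 0 lower. They included the BiP cochaperones DNAJB11 and DNAJC3, each at 0 and 0% with siCtrl and 100 and 100% with siKDM6B33. Among 20 p53 targets 9 (45%) were higher and 2 (10.0%) lower, and the DNA repair genes XPC and DDB2 went from 0 and 0% to 100 and 100% and to 100 and 78.0%. In the BCL2 family and caspase list 12 of 18 (66.7%) were higher and 0 lower, with cytochrome c (CYCS) at 0 and 0% against 96.1 and 96.1% and the survival protein MCL1 at 0 and 0% against 81.3 and 100%. The medians of the difference were 2.53, 37.2, 10.6 and 18.9 points in this order, beside 2.38 over all genes. The means were 29.1, 44.5, 26.4 and 37.2 points, beside 27.9 over all genes. In the gene window 11 of 18 ATF4 targets (61.1%), 14 of 19 genes of the unfolded protein response (73.7%), 12 of 20 p53 targets (60%) and 12 of 18 of the BCL2 and caspase list (66.7%) were higher, and 1, 0, 2 and 2 lower, beside 46.2% and 9.63% of all genes.

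With GSK-J4, 0 genes of these 4 lists were higher in H3K4me1 start coverage, and 4 of 18, 3 of 19, 2 of 20 and 1 of 18 were lower, beside 2.03% higher and 5.02% lower of all genes. All 4 medians of the difference were 0, as over all genes. The gene windows gave another picture. There 5 of 18 ATF4 targets were higher and 1 lower, 2 and 4 of 19 genes of the unfolded protein response, 2 and 3 of 20 p53 targets, and 4 and 1 of 18 genes of the BCL2 and caspase list, beside 10.3% and 7.96% of all genes. At its start SDF2L1, an ER chaperone partner, was at 89.5 and 79.5% with DMSO and at 0 and 0% with GSK-J4. EIF2AK3, which encodes the PERK sensor itself, was at 30.0 and 40.0% against 0 and 0%. CEBPB, a partner of ATF4, was at 71.7 and 100% against 51.7 and 0%, and PPP1R15A, which restores translation after stress, was at 74.4 and 67.4% against 0 and 60.4%. The p53 targets PLK3 and SESN1 were at 100 and 100% against 37.6 and 57.6% and at 21.9 and 39.4% against 0 and 0%. DIABLO, which frees caspases from their inhibitors, was at 100 and 93.7% against 82.0 and 35.2%.

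In H3K27me3 the start windows of these lists differed at 1 gene. After the knockdown 0 genes of the 4 lists were higher and 0 lower, beside 3.20% and 1.25% of all genes. With GSK-J4 the BH3-only gene BMF was the 1 gene higher, at 89.2 and 89.2% under DMSO and 93.6 and 93.6% with GSK-J4, and 0 were lower, beside 1.32% and 1.34% of all genes. In the gene windows, 0 genes of each list were higher after the knockdown, beside 9.96% of all genes. There 2 ATF4 targets and 1 p53 target were lower, beside 3.25%. With GSK-J4, 1 ATF4 target, 1 p53 target and 2 genes of the BCL2 and caspase list were higher in the gene window, beside 5.52%. Lower was 1 ATF4 target, beside 4.03%. Counts of 0 to 2 in lists of this size cannot be set apart from these shares.

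**Figure D5:**
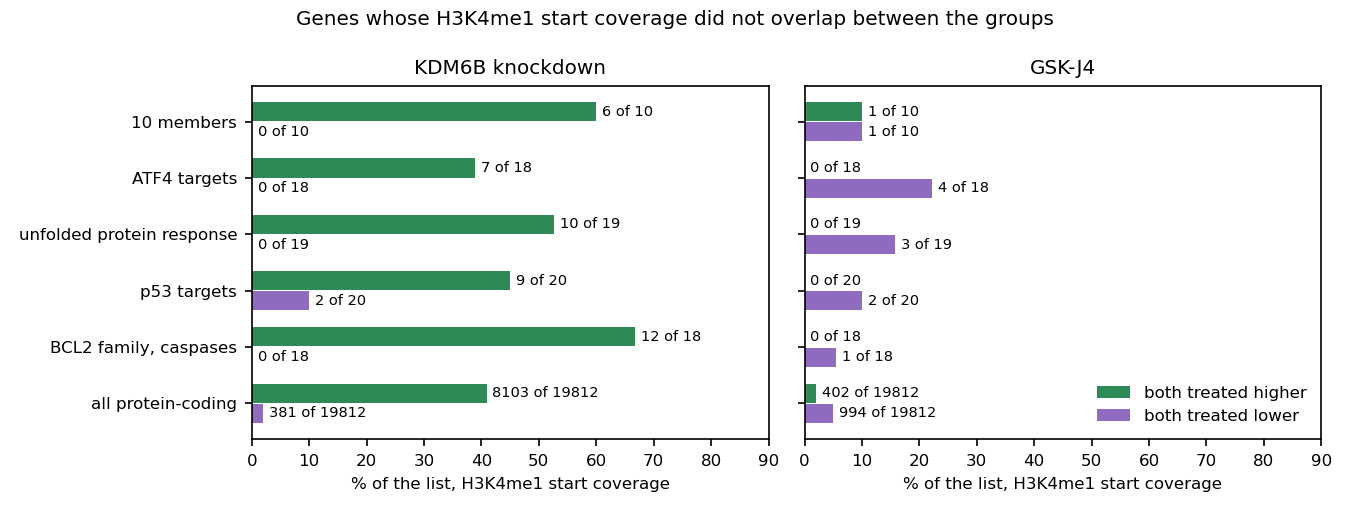
Percentage of each gene list whose H3K4me1 start coverage was higher (green) or lower (purple) in both treated than in both control libraries, for the knockdown (left) and GSK-J4 (right), with the counts at the bars. After the knockdown 38.9 to 66.7% of each list was higher, beside 40.9% of all protein-coding genes.

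Between members, the profiles of gene window coverage over all 16 libraries were most alike at PMAIP1 and MDM2, which differed by 1.41 percentage points on average, and at XBP1 and HSPA5, which differed by 1.54. Both pairs had 0% in most libraries. ATF4 and DDIT3 were each other's nearest, at 10.2 points. TRIB3 was nearest to MDM2 (5.04 points), ATF3 to TRIB3 (8.72 points), BBC3 to ATF3 (14.4 points) and CHAC1 to ATF4 (16.6 points).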

How the data were processed

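CUT&Tag of H3K27me3 and H3K4me1 was analysed in 16 libraries of BE2C cells, grouped by the sample titles. The authors aligned reads to hg19 with BWA 0.7.12, removed duplicates with Picard 1.65 and called regions per library, so replicates were not pooled. The deposited island lists of SICER 1.1 carry a score, which sums over windows and grows with depth. The deposited narrow peak lists of MACS2 carry a fold enrichment (a ratio to the local background), a −log10 p and a −log10 q. The MACS2 version is 2.1.1 in the submitters' processing notes. The lists hold no reads, so the voom and limma test that the authors ran on reads scaled to spike-in DNA was not run here, and no count model was used. The fold and −log10 p of a peak were solved together for its summit in tags and its background, and the lowest background among the most common pairs of values was taken as that of the library. A score, fold or p of a peak depends on the depth of its library.

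Positions came from GENCODE 44 mapped to GRCh37, the same build as the lists, and promoter sequence was read from that genome and not from RefSeq. Coverage of gene windows (5 kb on each side) and start windows (1 kb on each side of the starts of basic protein-coding transcripts) was computed in Python 3.11.15 with NumPy 2.4.6 and SciPy 1.17.1, and drawn with matplotlib 3.10.9. Calls, coverage, summits and motifs were tested on simulated data. Within each of the 4 comparisons, differences of group means were tested by the exact two-sided permutation test. Alternatives were islands within 2 kb joined, islands of at least 2 kb, lists cut to equal covered length, gene bodies without flanks, the canonical start alone, each library left out, a replicate block, and narrow peaks with a −log10 q of at least 5 or joined within 100 bp. Alternatives for the summit heights were chosen after seeing the data.

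All 10 members were named. From each of the other lists, and for each mark and experiment, at most the 2 genes with the largest difference of start coverage among those whose groups did not overlap were named. The marker genes named for the check of the cells fall outside this rule and were chosen after their values were seen. The members and lists were chosen with earlier results of these data known. Some of the marker genes examined are not reported here.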

Additional observations from a re-analysis of the deposited data

Results flagged for a closer look

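ATF4 stands here because its H3K4me1 gene window coverage differed in opposite directions in the knockdown and the compound experiment. The difference was 11.5 percentage points for siKDM6B33 minus siCtrl and −28.5 points for GSK-J4 minus DMSO, and neither pair of groups overlapped. The difference between these effects was 40.0 points, and it was not tested. The experiments had separate controls, whose coverage of this window was 70.0 to 77.7% with siCtrl and 51.5 to 68.4% with DMSO. H3K4me1 background was 0.0849 to 0.107 tags per base in the siRNA libraries and 0.0483 to 0.0569 in the compound libraries. The part of these values in the result was not tested.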

How the results depend on the processing

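Nearly all counts of members were within 1.5 times of the main count when islands within 2 kb were joined, when islands under 2 kb were dropped, when lists were cut to equal covered length, and over gene bodies or canonical starts alone. The exceptions were the count lower in H3K4me1 gene window coverage after the knockdown, 0 in the main analysis and 1 (TRIB3) with equal covered length, and the count higher in H3K27me3 gene window coverage with GSK-J4, 1 in the main analysis and 0 over gene bodies without flanks (where DDIT3 overlapped, with a difference of 5.83 points). Replicate numbers did not pair the samples: the differences between replicates 1 and 2 of treated and control libraries correlated across genes by −0.0466 to 0.0789. With the replicate block, 6 members were higher in H3K4me1 start coverage and 5 in gene window coverage after the knockdown, as without it, and no other call changed. The 6 members higher in H3K4me1 start coverage were 5 with equal covered length, 4 with islands of at least 2 kb and 4 over the canonical start alone. No difference reversed under these alternatives.

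Single libraries decided several counts, and the values below are the lowest and highest with each library left out. In the knockdown, H3K4me1 gene window counts were 5 to 8 higher (8 without siKDM6B33 replicate 1) and 0 to 2 lower (2 without siKDM6B33 replicate 2), and the start window count was 0 to 1 lower (1 without siKDM6B33 replicate 1 or siCtrl replicate 1). With GSK-J4, H3K4me1 start window counts were 1 to 3 higher (3 without GSK-J4 replicate 2) and 1 to 2 lower (1 without DMSO replicate 1). H3K27me3 gene window counts with GSK-J4 were 1 to 4 higher (4 without GSK-J4 replicate 2, 2 without DMSO replicate 2) and 1 to 2 lower (2 without DMSO replicate 1), and the start window count was 0 to 2 higher (2 without GSK-J4 replicate 2). The summit over background was lower after the knockdown at 1 member without siCtrl replicate 2 (0 with all libraries), and with GSK-J4 it was higher at 3 without GSK-J4 replicate 2 and at 2 without DMSO replicate 2 (0 with all libraries) and lower at 4 without DMSO replicate 1 (2 with all libraries). Where a library is left out, its group is 1 sample and the count is a value with no test.

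The causes of these changes were not tested. Each group had 2 libraries and the lists held no reads. A coverage of 0% is not an absence of tags: the XBP1 start was listed at 0% and held narrow peaks of 3 tags in both siCtrl libraries.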
